A study of Mus musculus with 4 samples.

Results

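Wells that carried neutrophil messages were collected from single-well RNA sequencing of mouse hearts, a data set with 4 animals and 4 chips. A well was kept with at least 10000 UMIs (unique molecular identifiers, each marking 1 captured RNA molecule) and 300 detected genes. It was called a neutrophil well when S100a8, S100a9, Csf3r, Retnlg, Cxcr2, Il1r2 and Mmp9 together made up at least 0.5% of its UMIs outside mitochondrial (mt-) and globin (Hba-, Hbb-) genes, with at least 3 of the 7 detected. By this rule 155 of 3990 kept wells were neutrophil wells. Of these, 153 lay in the fraction the per-well reports call NCM and 2 in the fraction they call CM.

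The animals were C57BL/6 mice. WT1 and WT2 are labelled wild type, and KO1 and KO2 are labelled Mst1/2-deficient, that is, lacking the kinases MST1 and MST2 of the Hippo pathway (genes Stk4 and Stk3). Cardiomyocytes had been parted from the other heart cells by repeated slow spins, which gave the 2 fractions. Each chip held 1 genotype and 1 fraction, so the genotype and the chip cannot be told apart. The series title speaks of a leukotriene B4 receptor antagonist, an MST1/2 inhibitor and myocardial infarction, but no label gives a drug or an injury for these hearts. The sources used here do not give the age of the animals, the allele or the cells that lost the kinases.

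Neutrophils are short-lived granulocytes of the blood that enter injured heart muscle early. They store antimicrobial proteins in granules, carry the calcium-binding proteins S100A8 and S100A9 in large amounts, and follow gradients of chemokines, formyl peptides, complement and leukotriene B4. Leukotriene B4 is made from arachidonic acid by 5-lipoxygenase with its helper protein and then by leukotriene A4 hydrolase, and it acts on the receptor encoded by Ltb4r1. Activated neutrophils secrete interleukin-1β and chemokines under the control of NF-kB.

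The neutrophil wells of the NCM fraction held medians of 48587 UMIs in WT1, 68358 in WT2, 84846 in KO1 and 135943 in KO2. Mitochondrial genes took 9.0, 8.30, 61.9 and 35.8% of their summed UMIs in the same order, and globin genes 0.102, 15.6, 8.16 and 18.9%. Outside both gene groups the medians were 46606, 60407, 25431 and 60523 UMIs. KO1 was therefore the shallowest animal for all other genes, although it was not so by total UMIs. Levels below are CPM, counts of a gene scaled to the total UMIs outside mt-, Hba- and Hbb- genes (counts per 1e6), summed over an animal's neutrophil wells. Sets of 4 values are in the order WT1, WT2, KO1, KO2. The libraries shared 60 to 400 cell barcodes pairwise, each at the same chip position, and no barcode of a neutrophil well was shared (0).

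The rule markers chose the wells, so their levels are a description. S100a8 (chromosome 3, 90668978-90670035, mm10) and S100a9 (chromosome 3, 90692632-90695721), the calprotectin subunits, stood at 10229, 7735, 5839.6 and 5519 CPM and 8687, 5459.8, 5396 and 4459 CPM. Il1r2 (chromosome 1, 40074079-40125231), the decoy receptor for interleukin-1, was at 6023, 6209, 1207 and 2616 CPM. These 3 genes made up nearly all of the marker UMIs, and each was lower in both KO animals than in both WT animals, with S100a9 of KO1 just below that of WT2. Csf3r, the granulocyte colony-stimulating factor receptor, was at 573, 319, 205 and 175 CPM and followed the same order. Cxcr2 and Mmp9, a chemokine receptor and gelatinase B, overlapped between genotypes at 158, 116, 71.8 and 196 CPM and 740.0, 250.1, 393 and 449 CPM. Retnlg, a resistin-like peptide of mature neutrophils, came from few wells: 11 of 75, 8 of 32, 4 of 25 and 2 of 21 wells held a UMI.

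The marker share differed between the animals. Its median per well was 1.72, 1.91, 0.894 and 1.01%, and the highest wells reached 9.84, 7.28, 12 and 4.62%. At least 1% was held by 53, 21, 11 and 11 wells and at least 2% by 36, 15, 4 and 2 wells. Just inside the threshold were wells with 0.502, 0.503 and 0.509%, and just outside were wells with 0.494, 0.493 and 0.490% and at least 3 markers detected. A few wells with up to 1.66% stayed out because only 2 markers were detected. In the wells that were not neutrophil wells, the pooled marker share was 0.0290, 0.0190, 0.0346 and 0.0347%.

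**Figure D1:**
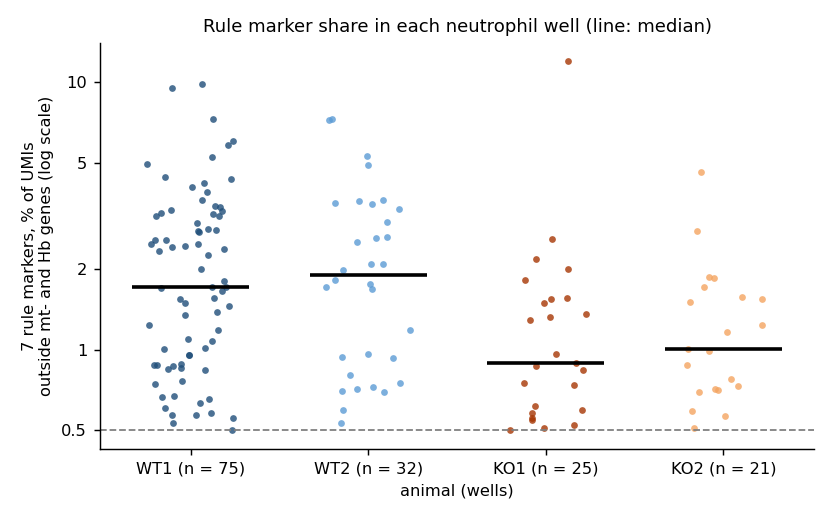
Summed share of the 7 rule markers in each NCM neutrophil well (% of UMIs outside mt- and globin genes, log axis), with 1 point per well, a line at the median of each animal and a dashed line at the 0.5% threshold. The medians of 1.72 and 1.91% in the WT animals lie above the 0.894 and 1.01% of the KO animals, and only 4 and 2 KO wells reach 2%.

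Other neutrophil genes, which the rule did not use, were present in the same wells. Summed over a list of 21, their share was 2.69, 1.77, 0.901 and 0.871% of UMIs outside mt- and globin genes. In macrophage wells, defined by 7 macrophage markers as given below, it was 0.766, 1.05, 0.557 and 1.23%. In KO2 the macrophage wells thus held the larger share. A list of 18 secondary and tertiary granule genes held 0.571, 0.337, 0.682 and 0.262% in neutrophil wells. In macrophage wells it held 1.67, 1.58, 0.639 and 0.527%, so the neutrophil share was larger only in KO1, where 1 well reached 16.2%. Srgn, the granule proteoglycan serglycin, was detected in 74 of 75, 32 of 32, 24 of 25 and 21 of 21 wells, and Clec4e, the receptor Mincle, in 71 of 75, 31 of 32, 19 of 25 and 20 of 21. After thinning every well to 10000 UMIs, which left out 3, 0, 2 and 1 wells, 93.1, 90.6, 65.2 and 80% of neutrophil wells held a Clec4e UMI. Fibroblast-rich wells (at least 2% of UMIs from 12 fibroblast markers), used here as the background of free RNA, held one in 21.4, 21.1, 29.5 and 28.7%. S100a8 is a rule gene, so its contrast was set by the choice of wells. Its thinned shares were 87.5, 87.5, 91.3 and 80% in neutrophil wells against 23.9, 15.4, 15.2 and 16.7% in fibroblast-rich wells. Ly6g, the antigen most used to stain mouse neutrophils, was listed at 0 in 3 animals and in a single KO1 well. Of 6 primary granule genes listed, 4 were among the counted genes. Ctsg and Ms4a3 were at 0 in all 4 animals, Mpo was found in 1 well of KO2, and Prtn3 had UMIs in WT1, KO1 and KO2. Their summed share was 5.5e-05, 0, 0.000228 and 0.00215%, beside 0.000884, 0.00121, 0.000329 and 0.000814% in the remaining wells. It was thus higher only in KO2.

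Markers of T and NK cells, B cells, mast cells and basophils, and eosinophils were scarce. Cd3e, Trac, Klrb1c and Ncr1 of T and NK cells, Ms4a1 of B cells, Cpa3 and Mcpt8 of mast cells and basophils, and Prg2 and Epx of eosinophils were at 0 in all 4 animals. Other members of these lists had UMIs: of 8 eosinophil markers, 4, 1, 2 and 1 did. Their summed share was 0.00305, 0.00115, 0.00718 and 0.00116%, higher than the 0.000265, 0.000541, 0.000497 and 0.000512% of the remaining wells. For the T and NK cell, B cell, and mast cell and basophil lists the share was not higher in every animal. A single WT1 well held 0.611% of T and NK cell markers and a single WT2 well 0.770% of B cell markers. Of 8 dendritic cell markers, Xcr1 was at 0 in all animals, but 7, 7, 4 and 4 had UMIs. Their summed share was 0.0116, 0.0504, 0.00569 and 0.00171%, beside 0.0157, 0.00771, 0.00909 and 0.00543% in the remaining wells, and the highest wells reached 0.425% in WT1 and 0.167% in WT2. Macrophage markers were present: Csf1r held a UMI in 36.1, 15.6, 30.4 and 20% of thinned neutrophil wells and in 19.7, 16.3, 14.3 and 20.4% of fibroblast-rich wells. C1qb was found in 75, 71.9, 95.7 and 90% of thinned neutrophil wells but also in 64.1, 65, 70.5 and 75.9% of the fibroblast-rich ones. The median share of 12 macrophage markers per neutrophil well was 0.180, 0.0348, 0.127 and 0.179%. The 8 monocyte markers had a summed share of 0.107, 0.126, 0.161 and 0.179%, beside 0.183, 0.157, 0.148 and 0.206% in the remaining wells. Their highest wells reached 0.665, 0.742, 0.737 and 1.04%. The monocyte list was not among the 6 other-type lists used below.

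Markers of heart structure were more frequent in the KO neutrophil wells. The 12 endothelial markers had medians of 0.0600, 0.0343, 0.459 and 0.211% per well, and the 12 cardiomyocyte markers 0.0741, 0.108, 0.217 and 0.728%. Fibroblast markers had medians of 0.369, 0.375, 0.391 and 0.839%. Wells with over 0.5% of UMIs in any of 6 other-type marker lists numbered 37 of 75, 18 of 32, 17 of 25 and 17 of 21. The same tilt was present outside neutrophil wells: Fabp4, a lipid carrier of endothelium, held a UMI in 51.4, 56.2, 95.7 and 100.0% of thinned neutrophil wells and in 51.3, 56.1, 91.4 and 89.8% of thinned fibroblast-rich wells.

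**Figure D2:**
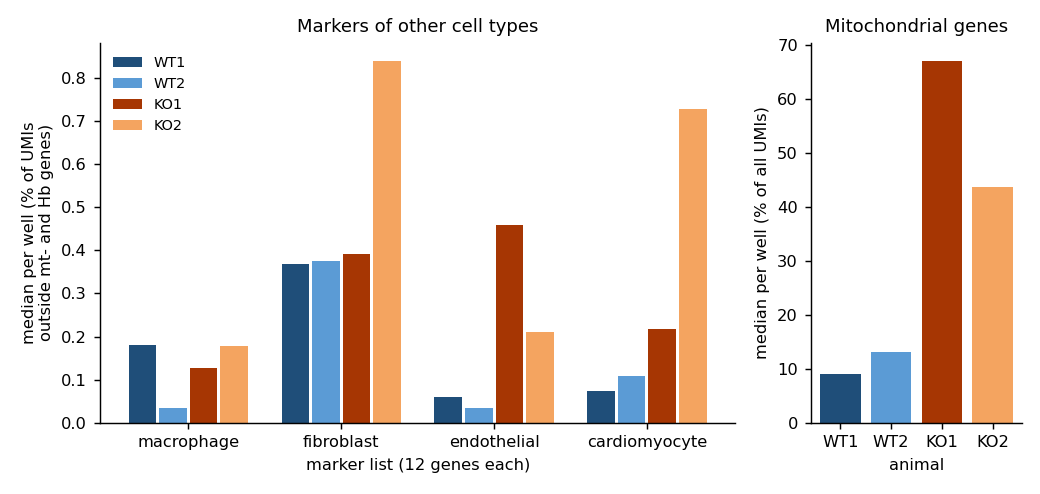
Median per NCM neutrophil well of the summed UMIs of 12 macrophage, fibroblast, endothelial and cardiomyocyte markers (left, % of UMIs outside mt- and globin genes) and of mitochondrial genes (right, % of all UMIs), by animal. Endothelial medians are 0.459 and 0.211% in KO1 and KO2 against 0.0600 and 0.0343% in WT1 and WT2, and mitochondrial medians are 67.1 and 43.7% against 9.09 and 13.1%.

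Neutrophil wells were a larger share of the NCM wells in the WT hearts, with 1 animal far above the others. WT1 had 75 of 692 kept NCM wells (10.8%, exact 95% interval 8.62 to 13.4%) and WT2 had 32 of 703 (4.55%, 3.13 to 6.37%). KO1 had 25 of 715 (3.5%, 2.28 to 5.12%) and KO2 had 21 of 747 (2.81%, 1.75 to 4.27%). Both KO values lay below both WT values, but the interval of WT2 overlapped those of both KO animals. The mean difference was -4.54 percentage points (7.70 against 3.15%; two-sided exact permutation test over animals, p = 0.333, the smallest p that 2 animals against 2 allow). Without WT1 the difference was -1.40 points, so most of it came from that animal. These intervals cover counting error only.

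Macrophage wells, defined by 7 macrophage markers under the same share rule, showed the same order, at 18.8, 15.8, 10.9 and 9.37% of NCM wells (exact permutation test, p = 0.333). Per macrophage well there were 0.577, 0.288, 0.321 and 0.300 neutrophil wells. By this ratio WT2 lay below both KO animals (exact permutation test, p = 1). Among all immune wells, neutrophil wells made up 26.8, 17.0, 16.3 and 13.3%. The gap between WT2 and the KO hearts was thus small once the other immune wells were the base.

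**Figure D3:**
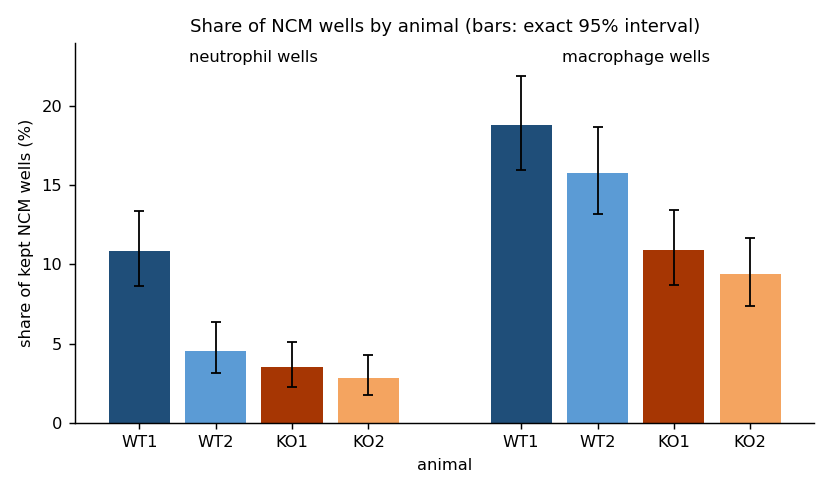
Neutrophil and macrophage wells as a share of the kept NCM wells of each animal (%), with exact 95% binomial intervals as error bars. Neutrophil wells make up 10.8% in WT1 and 4.55, 3.5 and 2.81% in WT2, KO1 and KO2, and macrophage wells show the same order of animals.

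In the CM fraction only WT2 had neutrophil wells, 2 of 274 (0.730%, exact 95% interval 0.0885 to 2.61%). Counts of 0 of 210 in WT1, 0 of 264 in KO1 and 0 of 385 in KO2 allow shares of up to 1.43, 1.14 and 0.779%, taken as 3 counts of the total. Both wells passed with marker shares of 0.930 and 0.678% and also held 10.8 and 4.13% of cardiomyocyte marker UMIs. No genotype test was made in this fraction.

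The wells' own transcript profile was led by a few messages. Nfkbia, which encodes the NF-kB inhibitor IkBα, was the most abundant named protein-coding gene at 38542, 28229, 8033 and 11646 CPM, against a mean of 3193 CPM in the remaining NCM wells. The ferritin heavy chain gene Fth1 (24535, 16968, 6550.3 and 7603 CPM) and the genes S100a8, S100a9, Il1b, Cxcl2, Srgn and Il1r2 also stood among the 18 most abundant. By ratio to the remaining NCM wells, with 1 CPM added to both means, the leading genes outside the rule with UMIs in over 40 wells were Il1f9 (74.5 times), Hcar2 (61.2 times) and Fpr1 (39.4 times). Il1f9 encodes interleukin-36γ, Hcar2 the receptor for hydroxybutyrate and niacin, and Fpr1 the formyl peptide receptor. These ratios describe the wells that the rule chose and were not tested.

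Between genotypes, genes were compared with edgeR's quasi-likelihood test on the summed UMIs of 2 WT and 2 KO animals, with Benjamini-Hochberg adjustment. Of 8441 genes tested, 0 were higher in KO (0%) and 0 were lower (0%) at an adjusted p under 0.05. At an unadjusted p under 0.05, 308 were higher (3.65%) and 391 were lower (4.63%). Both KO animals lay above both WT animals for 1564 genes (18.5% of those tested) and below both for 1481 (17.5%), and the median log2 difference of all genes was -0.11 (0.21 when scaled by library totals). The counts depended on the test and on single animals: DESeq2 called 183 higher and 137 lower, and edgeR called 116 higher and 26 lower without KO1 and 27 and 22 without KO2. The p-values measure the spread between these animals. Differences below are KO minus WT on the log2 scale within neutrophil wells unless another contrast is named, and none of those passed the adjusted threshold of the edgeR test.

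Single wells weighed heavily on these sums. The deepest well of WT2 held 29.6% of that animal's UMIs outside mt- and globin genes and the deepest well of KO2 held 23.8%, against 13% in WT1 and 11.9% in KO1. The deep WT2 well reached its marker share of 0.713% almost wholly through Il1r2 (7721 UMIs, against 9 of S100a8 and 8 of S100a9), and 6.48% of its UMIs came from MHC class II genes. The deep KO2 well held 6104 UMIs of S100a8, 79 of S100a9 and 2530 of Cdca8, a subunit of the chromosomal passenger complex that acts in cell division. Values without the deepest well of each animal, a choice made after these wells were seen, stand beside several of the gene lists below.

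Genes of neutrophil identity that the rule did not use were mostly lower in the KO wells. Of 19 tested, 12 lay below both WT animals in both KO animals and 0 above (beside 17.5% and 18.5% of all genes). At an unadjusted p under 0.05, 8 were below WT (beside 4.63% of all genes). Their median difference was -1.40 against -0.11 for all genes. Srgn was at 8396, 5372, 1765 and 2573 CPM, a difference of -1.88 (SE 0.57, adjusted p = 0.501). Clec4e was at 5735, 2628, 1317 and 1407 CPM, -1.85 (SE 0.614, adjusted p = 0.516). Hdc, which makes histamine, was at 1566, 864, 556 and 324 CPM, -1.78 (SE 0.739, adjusted p = 0.551), and Trem1, an amplifying receptor of myeloid cells, was at 1331, 1015, 271 and 721 CPM, -1.40 (SE 0.803, adjusted p = 0.733). For each of these 4 genes the 2 genotypes did not overlap. Wfdc17, a gene that was as high in the remaining wells, also did not overlap, at 3429.8, 2114, 1678 and 1993 CPM.

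Some less abundant identity genes were found in few wells. The protease gene Asprv1 had UMIs in 17 of 75, 12 of 32, 2 of 25 and 3 of 21 wells, the stefin gene Stfa2l1 in 11 of 75, 7 of 32, 2 of 25 and 2 of 21, and the receptor gene Mrgpra2b in 16 of 75, 7 of 32, 1 of 25 and 1 of 21. Their levels were 417, 232, 21.6 and 30.3 CPM, 175, 207, 19.4 and 14.9 CPM and 197, 412, 6.83 and 20.9 CPM. In wells thinned to equal UMIs Asprv1 was found in 11.1, 28.1, 8.7 and 10%, so WT1 was close to the KO animals, Stfa2l1 in 11.1, 18.8, 8.7 and 5% and Mrgpra2b in 16.7, 18.8, 4.35 and 5%. Mrgpra2a was at 0 in both KO animals. Lcn2 and Trem3 overlapped between genotypes, and Cd177 was found in at most 1 well per animal.

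The KO wells also had a lower marker share and higher structural marker shares. Their part in the lower identity genes was not tested beyond the choices of wells below. In wells with a marker share of at least 1% (53, 21, 11 and 11 wells), 13 of 18 identity genes lay below both WT animals and the median was -1.62. In wells without over 0.5% of other-type markers (38, 14, 8 and 4 wells), 10 of 20 did and 1 lay above, with a median of -1.62. In thinned wells 11 of 16 did, with a median of -1.34. Without the deepest well of each animal 12 of 19 lay below and 1 above, with a median of -1.75. In wells under 50% mitochondrial UMIs (72, 31, 4 and 16 wells), 16 of 18 lay below and the median was -2.26. The base moved with the choice of wells. In the order given, 22.3, 20.7, 17.0, 17.0 and 25.3% of all genes lay below both WT animals. The medians of all genes were -0.19, -0.42, 0.02, -0.10 and -0.41.

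**Figure D4:**
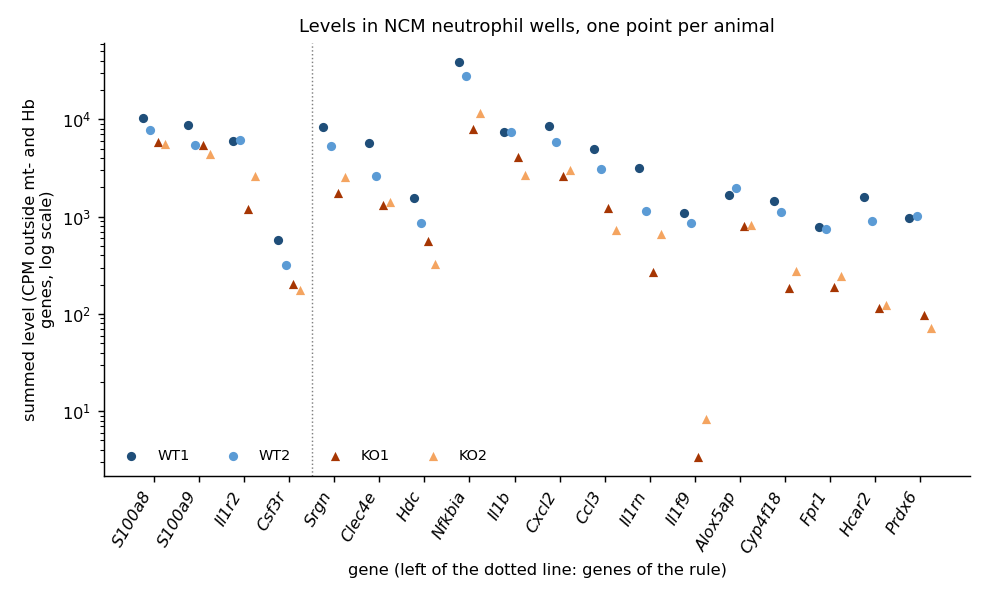
Summed level of 18 genes in the NCM neutrophil wells of each animal (CPM outside mt- and globin genes, log axis), with circles for WT and triangles for KO animals and genes of the rule left of the dotted line. The genes are a selection in which the 2 KO animals lie below both WT animals, narrowly for S100a9 (5396 in KO1 and 5460 in WT2). Genes that overlapped (such as Cxcr2, Mmp9 and Tnf) or lay above (such as Ier3 and Vegfa) are not shown. Of all genes tested, 17.5% lay below both WT animals and 18.5% above. The widest gap is Il1f9 at 1079 and 869 CPM against 3.42 and 8.26 CPM.

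NF-kB target and feedback genes followed a similar order. Of 18 tested, 9 lay below both WT animals and 1 above (beside 17.5% and 18.5% of all genes), with a median difference of -1.53. Nfkbia differed by -1.98 (SE 0.45, adjusted p = 0.377). Its median well was at 28646, 21709, 9170.3 and 10107 CPM, so the order held for the median well as well as for the sums. Tnfaip3, which encodes the NF-kB brake A20, was at 840.0, 1039.9, 404 and 264 CPM, -1.84 (SE 0.773, adjusted p = 0.557). Nfkbie and Traf1, 2 further target genes, had UMIs in 21 of 75, 8 of 32, 2 of 25 and 2 of 21 and in 24 of 75, 6 of 32, 2 of 25 and 4 of 21 wells. Rela, the NF-kB subunit p65, overlapped between genotypes at 19.4, 30.8, 352 and 4.41 CPM, and Ier3 lay above both WT animals at 369, 216, 494 and 424 CPM, a difference of 0.38. In thinned wells the list median was -0.29 (7 of 15 below both WT animals, 1 above), and without the deepest well of each animal it was -1.44 (7 of 18 below).

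Among 24 cytokine and chemokine genes tested, 9 lay below both WT animals and 2 above (beside 17.5% and 18.5% of all genes). The median was -1.06. Without the deepest well of each animal 14 lay below and 2 above, with a median of -1.46. Il1b, interleukin-1β, was detected in 75 of 75, 31 of 32, 25 of 25 and 20 of 21 wells at 7400.4, 7486, 4068 and 2682 CPM, a difference of -1.47 (SE 0.505, adjusted p = 0.516). Cxcl2, a ligand of CXCR2, was at 8545, 5866, 2601 and 3028 CPM, -1.60 (SE 0.534, adjusted p = 0.516). Ccl3, a chemokine for monocytes, was at 5015, 3104, 1232 and 736 CPM, -2.36 (SE 0.604, adjusted p = 0.478). Il1rn, the interleukin-1 receptor antagonist, was at 3142, 1140.3, 268 and 666 CPM, -2.32 (SE 0.804, adjusted p = 0.516). Tnf overlapped in level, at 1753, 1096, 1116 and 638 CPM. Vegfa, the vascular growth factor, was among the 2 genes above both WT animals, at 13.4, 18.6, 117 and 139.9 CPM, with UMIs in only 16 of 75, 6 of 32, 7 of 25 and 5 of 21 wells.

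Il1f9 (chromosome 2, 24186476-24193568), which encodes interleukin-36γ, had the smallest p of all genes. It was at 1079, 869, 3.42 and 8.26 CPM, with UMIs in 31 of 75, 18 of 32, 2 of 25 and 2 of 21 wells, a difference of -7.51 (SE 1.12, adjusted p = 0.133). The adjusted p ranged from 1.01e-06 to 0.711 over the alternatives tried, and the difference from -13.87 to -6.91. In thinned wells 37.5, 46.9, 0 and 10% held a UMI, against 0.855, 2.44, 0.952 and 1.85% of fibroblast-rich wells.

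Genes of the leukotriene B4 pathway were uneven. Of 10 tested, 3 lay below both WT animals and 1 above (beside 17.5% and 18.5% of all genes), with a median of -1.18. The summed share of the list was 0.339, 0.329, 0.115 and 0.134% in neutrophil wells. In macrophage wells it was 0.173, 0.186, 0.105 and 0.129%, also lower in both KO animals. Alox5, which encodes 5-lipoxygenase, was found in 15 of 75, 8 of 32, 1 of 25 and 1 of 21 wells at 41.6, 12.8, 39.9 and 0.551 CPM. Its helper gene Alox5ap was at 1654, 1974, 802 and 824 CPM, -1.44 (SE 0.668, adjusted p = 0.603). Lta4h, the hydrolase that makes leukotriene B4, lay above both WT animals at 9.91, 12.3, 47.8 and 43 CPM but with UMIs in only 12 of 75, 4 of 32, 4 of 25 and 3 of 21 wells, a difference of 1.73. Cyp4f18, the enzyme that inactivates leukotriene B4, was at 1461, 1126, 183 and 274 CPM, -2.72 (SE 0.79, adjusted p = 0.478). Pla2g4a, the phospholipase that frees arachidonic acid, was at 47.9, 16.7, 1.14 and 1.1 CPM.

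The receptor gene Ltb4r1 (chromosome 14, 55765962-55768494) was near the limit of detection. It held UMIs in 7 of 75, 4 of 32, 3 of 25 and 2 of 21 wells, at 4.04, 3.55, 11.4 and 2.2 CPM, and its difference of 0.38 (SE 1.83) says nothing of direction at this depth. Ltb4r2 was at 0 in all neutrophil wells. Among 10 chemoattractant receptors tested, 3 lay below both WT animals and 0 above (beside 17.5% and 18.5% of all genes). The median was -0.39. It was -1.03 without the deepest well of each animal (4 of 9 below, 0 above). Fpr1 was at 775, 747, 189 and 247 CPM, -2.05 (SE 0.832, adjusted p = 0.536), with UMIs in 24 of 75, 10 of 32, 6 of 25 and 4 of 21 wells. C5ar1, the complement C5a receptor, was at 689, 574, 374 and 148 CPM, -1.65 (SE 0.842, adjusted p = 0.65), and Ptafr and Cxcr4 overlapped between genotypes.

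Pattern recognition and Fc receptor genes had a median of -1.38. Their summed share was 1.01, 0.877, 0.536 and 0.571% in neutrophil wells. In macrophage wells it was 0.961, 1.02, 0.567 and 0.611%, so the lower KO values were not particular to neutrophil wells. Of 18 tested, 9 lay below both WT animals and 0 above (beside 17.5% and 18.5% of all genes). Fcer1g, the shared signalling chain of Fc receptors, was at 4427, 4541, 1614 and 2443 CPM, -1.38 (SE 0.591, adjusted p = 0.566), and Fcgr3 was at 746, 354, 195 and 173 CPM, -1.83 (SE 0.881, adjusted p = 0.616). Cd14 overlapped at 1416, 1549, 2091 and 1374 CPM. Adhesion and migration genes had 8 of 14 below and 2 above, with a median of -1.06. Icam1 was at 304, 171, 77.5 and 31.9 CPM, -2.47 (SE 1.13, adjusted p = 0.592). Itgb1 and Pecam1, both strong in heart endothelium, were the 2 genes above both WT animals.

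Granule and oxidase genes had no stable order. Of 15 secondary and tertiary granule genes tested, 1 lay below both WT animals and 2 above (beside 17.5% and 18.5% of all genes). Their median was -0.55. That median turned to 0.08 without the deepest well of each animal (3 below, 2 above) and to 0.18 in thinned wells (2 of 10 below, 1 above). Of 15 NADPH oxidase and antioxidant genes, 3 lay below and 1 above, with a median of -0.24, which was 0.03 when animals were scaled by library totals. Cybb, the catalytic subunit of the oxidase, overlapped at 343, 87.1, 174 and 166 CPM. Prdx6, a peroxiredoxin outside these lists, was at 966, 1021, 98 and 71.6 CPM with UMIs in 54 of 75, 23 of 32, 13 of 25 and 10 of 21 wells, -3.87 (SE 0.859, adjusted p = 0.372). Of 6 inflammasome genes tested, 4 lay below both WT animals and 0 above, with a median of -1.59. Nlrp3, the inflammasome sensor, was at 358, 711, 211 and 161 CPM, -1.87 (SE 0.895, adjusted p = 0.616).

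A single KO1 well carried most UMIs of a few granule genes. Ngp (neutrophilic granule protein), Camp (cathelicidin) and Ltf (lactoferrin), genes of developing neutrophils, had 1903, 834 and 247 UMIs in a KO1 well that also had the highest marker share, 12%. Secondary and tertiary granule genes made up 16.2% of its 24202 UMIs outside mt- and globin genes. That well held 99.9% of the Ngp UMIs of KO1, and KO2 had none. The WT animals had Ngp UMIs in 2 and 1 wells, at 1.83 and 14.5 CPM.

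MHC class II genes, which present antigen, were lower in KO in the sums, and their size rested on the deep WT2 well. Of 6 tested, 3 lay below both WT animals (beside 17.5% of all genes), with a median of -2.54. H2-Aa was at 880.4, 6787, 439 and 650.4 CPM and H2-Ab1 at 1214, 10149, 344 and 2776 CPM. The deep well held 89.2 and 89.5% of the WT2 UMIs of these 2 genes. Without the deepest well of each animal the median was -0.78 (2 of 6 below both WT animals), and in wells of at least 1% marker share it was -0.04 (0 of 6). In thinned wells, where each well counts alike, 6 of 6 lay below with a median of -1.77.

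Of 32 interferon-stimulated genes tested, 11 lay above both WT animals (34.4%, beside 18.5% of all genes) and 2 below, with a median of 1.32. These counts and the median weigh each gene alike. The summed share of the whole list overlapped between genotypes, at 0.536, 1.12, 0.4998 and 0.932% of UMIs outside mt- and globin genes. KO1 was the lowest animal by this sum and WT2 the highest. Zbp1, a sensor of nucleic acids, was at 1.28, 1.09, 18.2 and 188 CPM, and Ifit3b at 1.28, 0.273, 42.1 and 83.7 CPM. Few wells carried them: Zbp1 had UMIs in 7 of 75, 4 of 32, 1 of 25 and 5 of 21 wells. In thinned wells Ifit3b was found in 2.78, 0, 4.35 and 15% of neutrophil wells and 4.27, 1.63, 3.81 and 14.8% of fibroblast-rich wells, and Zbp1 in 4.17, 0, 4.35 and 25% and 4.27, 3.25, 3.81 and 13%. The Ifit3b shares were thus close to those of wells of another kind. In wells without other-type markers, 5 of 26 lay above and 3 below (beside 14.1% and 20.7% of all genes). The list median there was 0.54, beside -0.42 for all genes.

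Markers of endothelium and cardiomyocytes also lay higher in the KO wells. Their part in the count of higher interferon-stimulated genes was not tested beyond leaving out wells with other-type markers. Of 11 endothelial markers tested, 7 lay above both WT animals and 1 below (beside 18.5% and 17.5% of all genes). Their median was 2.07. Of 12 cardiomyocyte markers, 7 lay above and 0 below, with a median of 1.41. Fabp4 was at 532, 298, 2889.6 and 1131 CPM and Myh6, the cardiac myosin heavy chain, at 48.4, 89, 367 and 918 CPM. In wells without over 0.5% of other-type markers, 2 of 9 endothelial markers lay above and 2 below (median 0.83), and 7 of 11 cardiomyocyte markers lay above (median 0.95). Of all genes in these wells, 14.1% lay above and 20.7% below, with a median of -0.42.

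**Figure D5:**
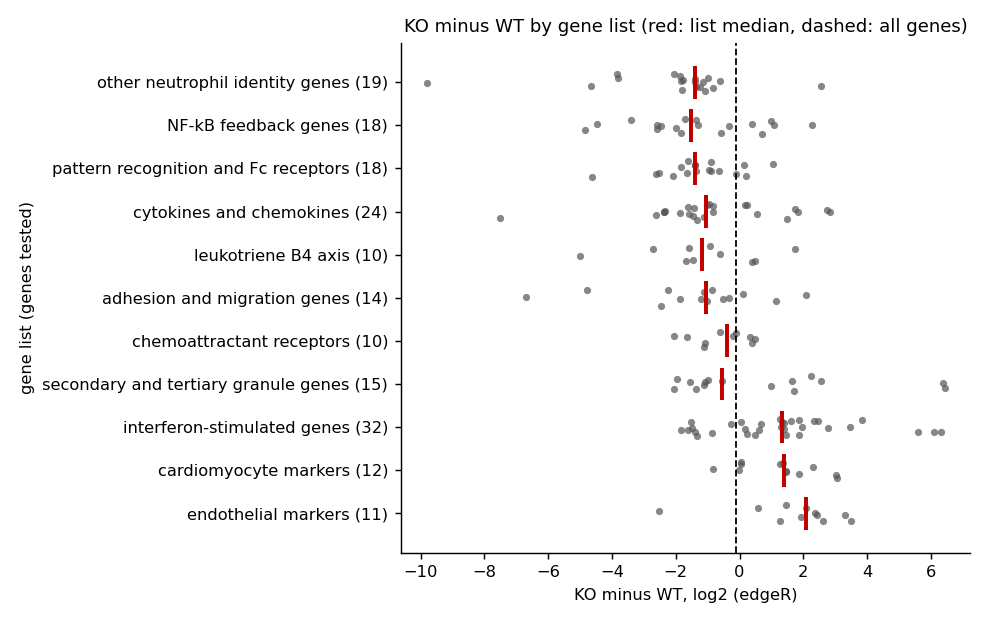
KO minus WT (log2, edgeR) of every tested gene in 11 gene lists, with a red line at the list median and a dashed line at the median of all 8441 genes (-0.11). The medians run from -1.53 for NF-kB feedback genes and -1.40 for other identity genes to 1.32 for interferon-stimulated genes and 2.07 for endothelial markers, and genes within each list scatter widely.

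The kinases named in the labels could not be checked in these wells. Stk4 (MST1; chromosome 2, 164070322-164155524) held UMIs in 23 of 75, 9 of 32, 6 of 25 and 4 of 21 wells at 31.6, 96.6, 235 and 10.5 CPM, and 73.8% of its KO1 UMIs lay in 1 well. Stk3 (MST2; chromosome 15, 34875496-35178921) held UMIs in 8 of 75, 1 of 32, 3 of 25 and 0 of 21 wells at 7.89, 0.546, 10.3 and 0 CPM. In the remaining NCM wells Stk4 was at 54.6, 45.3, 39.3 and 38.4 CPM and Stk3 at 24.5, 40.1, 29.6 and 27.2 CPM, so transcripts of both genes were counted in KO hearts. Counts over a whole gene do not show a deletion of 1 part of it, and the deleted part is not given. Of 18 tested Hippo pathway genes, 3 lay above both WT animals and 2 below (beside 18.5% and 17.5% of all genes), with a median of 0.47. That median had no stable sign: it was 0.04 without the deepest well of each animal, -1.69 in wells without other-type markers and -0.81 in wells under 50% mitochondrial UMIs. Map4k4, a kinase that also activates the pathway, was at 17.4, 4.37, 249 and 172 CPM with UMIs in 17 of 75, 7 of 32, 6 of 25 and 10 of 21 wells.

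The genes with the smallest p-values in each direction were filled by rank, as none passed the adjusted threshold. Among the 12 with lower values, Il1f9, Nfkbia and Hcar2 had under 50% of the UMIs of each WT animal in any single well. In the other 9, over 50% of the UMIs of at least 1 WT animal lay in a single well. Cd83 (219.6, 1737, 43.3 and 64.4 CPM), H2-DMb2 (18.3, 640.5, 1.14 and 0 CPM) and Klrd1 (19.3, 559, 0 and 0 CPM) had nearly all their WT2 UMIs in the deep WT2 well. Prdx6, Snhg15, P2ry13, Gm24950, Cfp and Gripap1 complete the set. Among the 12 with higher values, 10 had over 50% of the UMIs of at least 1 KO animal in a single well and 8 had this in both KO animals. Cdca8 (1.83, 1.64, 60.4 and 1409.9 CPM), Med17, Prpf40b, Btbd9, Acyp2, Rbm18, Cd300lg, Tnc, Mmrn2 and Tmem67 belong to this set. Gm13341 and Gm13340 were the exceptions, at 748, 847, 19580.2 and 6786 CPM and 82.9, 79.4, 2013 and 1007 CPM with UMIs in all 25 and 21 KO wells. Both carry the names of predicted genes, and their counts are uncertain, since such genes can share sequence with others. They were high where the mitochondrial share was high, also in macrophage wells (626, 738, 13516 and 4309 CPM for Gm13341).

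Whether a genotype difference was particular to neutrophil wells was tested against the macrophage wells of the same animals, with an edgeR interaction term and the animal as a block. Of 12168 genes tested, 1 had a higher difference in neutrophil wells (0.00822%) and 2 had a lower one (0.0164%) at an adjusted p under 0.05. At an unadjusted p under 0.05, 218 were higher (1.79%) and 274 lower (2.25%). Hcar2 was at 1592, 897, 116 and 123 CPM in neutrophil wells and at 3.47, 1.82, 8.99 and 13.3 CPM in macrophage wells, an interaction of -5.63 (SE 0.953, adjusted p = 0.0163). Nfkbia was at 4658, 4855, 4181 and 3912 CPM in macrophage wells, and its interaction was -1.72 (SE 0.33, adjusted p = 0.0408). Cdca8 had an interaction of 7.33 (SE 1.35, adjusted p = 0.0342), with 98.8% of its KO2 UMIs in the deep well named above. With 1 animal left out the interaction stayed between -5.80 and -5.43 for Hcar2, between -2.09 and -1.33 for Nfkbia and between 5.52 and 9.12 for Cdca8, but calls were lost. The edgeR adjusted p of Hcar2 was 0.303 without WT1 and 0.275 without WT2, that of Nfkbia 0.096 without WT1 and 0.196 without KO1, and that of Cdca8 0.0808 without WT2 and 1 without KO2. Without the deepest well of each animal Cdca8 did not pass (interaction 4.20, adjusted p = 1), while Hcar2 and Nfkbia did (both 0.0345).

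Other leading genes did not pass this test. The interaction of Srgn was -1.89 and that of Cxcl2 -1.38, while that of Il1b was -0.35, close to 0. Endothelial markers were higher in KO macrophage wells too, with medians of 0.0644, 0.0713, 0.412 and 0.182% per well. In macrophage wells alone the Nfkbia difference was -0.39 (SE 0.265), and that of Hcar2 was 2.00 (SE 1.30) at a level of at most 13.3 CPM.

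Within animals, the wells can be described by the rule marker with the most UMIs. The wells were chosen by the sum of these markers, which by itself sets high levels of one against low levels of another, so nothing is read from their relations. Il1r2 led in 22 of 75, 9 of 32, 3 of 25 and 2 of 21 wells, and S100a8 or S100a9 in 50, 21, 19 and 18. Across wells, S100a8 and S100a9 levels had a Spearman's rho of 0.73, 0.56, 0.49 and 0.12. For Il1r2 and S100a8 it was 0.14, 0.05, -0.09 and 0.29. Wells of 1 animal share a chip, and depth enters all levels. In WT1 the median Nfkbia level was 34500.1 CPM in wells led by Il1r2 and 26459 CPM in those led by S100a8 or S100a9, and in WT2 it was 38184 and 19915 CPM. Retnlg had UMIs in 0 of the wells led by Il1r2 in each animal. In WT1, Il1f9 had UMIs in 8 of 11 wells with Retnlg and in 23 of 64 without, and in WT2 in 5 of 8 and 13 of 24. Clec4e, Srgn and Il1b were detected in nearly all wells of both kinds in the WT animals.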

How the data were processed

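Hearts of 2 WT and 2 Mst1/2-deficient mice were profiled by single-well RNA sequencing on 4 chips. The authors deposited UMI counts per gene and well and a report per well. The submitters' processing notes name STAR 2.5.2b, featureCounts of Subread 1.4.6-p1 and the mm10 build; the sources used here do not give the annotation release or the settings. Wells and members were chosen as described in the report. The members and gene lists were chosen with earlier results of these data known. Animals come from the per-well reports and are the replicates, and p-values measure only the spread between these animals.

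UMIs were summed per animal without mt-, Hba- and Hbb- genes and tested with edgeR 4.0.16 (limma 3.58.1, R 4.3.3): TMM scaling, filterByExpr, quasi-likelihood test, Benjamini-Hochberg threshold 0.05. The 7 rule genes were not tested. DESeq2 1.42.0 was an alternative. Python 3.11.15, numpy 2.4.6, pandas 2.3.3, scipy 1.17.1 and matplotlib 3.10.9 were used. The edgeR test was checked on simulated data. Animal values were compared with a two-sided exact permutation test. Intervals are exact Clopper-Pearson at 95%, and the limit for a count of 0 is 3 counts. No doublet caller was run; wells with over 0.5% of another type's markers were left out as an alternative. Genes were named by a rule: up to 12 per direction whose mean reached 20 CPM and whose genotypes did not overlap, filled by smallest unadjusted p, plus members of 38 fixed lists and the 15 leading genes outside them with at least 100 CPM. Alternatives concerned scaling, filters, thresholds, thinning and animals left out.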

Additional observations from a re-analysis of the deposited data

Results flagged for a closer look

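The 3 results below stood apart because the KO minus WT difference in neutrophil wells departed from that in macrophage wells of the same animals, by an edgeR interaction term. Hcar2, the hydroxybutyrate receptor gene, had a difference of -3.62 in neutrophil wells and 2.00 in macrophage wells, where its level was at most 13.3 CPM, and the interaction was -5.63 (SE 0.953, adjusted p = 0.0163). It was lower in both KO animals in neutrophil wells. With 1 animal left out the interaction stayed between -5.80 and -5.43, while the edgeR adjusted p was 0.303 without WT1 and 0.275 without WT2.

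Nfkbia had a difference of -1.98 in neutrophil wells and -0.39 in macrophage wells, with an interaction of -1.72 (SE 0.33, adjusted p = 0.0408). It was lower in both KO animals in neutrophil wells, and with 1 animal left out the interaction was between -2.09 and -1.33. The edgeR adjusted p was 0.096 without WT1 and 0.196 without KO1. DESeq2 gave an adjusted p of 0.669.

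Cdca8 had an interaction of 7.33 (SE 1.35, adjusted p = 0.0342). A single KO2 well held 98.8% of that animal's Cdca8 UMIs, and KO1 had UMIs in 1 well. Without the deepest well of each animal the interaction was 4.20 and the edgeR adjusted p was 1. Without WT2 the adjusted p was 0.0808, and without KO2 it was 1.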

How the results depend on the processing

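Of KO against WT genes in neutrophil wells, edgeR called 0 higher and 0 lower. DESeq2 called 183 and 137, library totals 2 and 1, no low-count filter 51 and 27, wells without other-type markers 1 and 1, and a marker share of at least 2% gave 2 and 3. Without the highest well of each gene 4 and 3 were called and without the deepest wells 2 and 1, both chosen after seeing the data. Leaving out 1 animal gave 8 to 116 higher and 4 to 26 lower, where a lone animal is assumed to vary like the other genotype. For the interaction (1 and 2) DESeq2 called 98 and 62, library totals 4 higher, no filter 5 and 4, thinned wells 7 lower, wells without other markers 0 and 6, and without the deepest wells 0 higher. Leaving out 1 animal gave 0 to 38 higher and 2 to 13 lower. The well share difference kept its sign, from -7.68 to -1.40 points with 1 animal left out. The cause of these shifts was not tested.

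Single differences that changed sign were Alox5 without KO2 (0.10), Alox5ap at a marker share of at least 2% (0.18), and H2-Ab1 without WT2 (0.39), at 1% (1.70) and at 2% (0.49). Herc6 was at -7.44 under 50% mitochondrial UMIs and Oasl2 at -1.83 at 2%. Stk3 was at 0.23 with library totals and 0.86 without KO2. Stk4 was at -0.34 without WT1, -2.73 without KO1, -2.45 without other-marker wells, -1.91 at 2%, -0.81 under 50% mitochondrial UMIs and -0.051 without the deepest wells. With 1 animal left out, Alox5 ranged from -5.51 to 0.10, H2-Ab1 from -4.67 to 0.39, Stk3 from -6.87 to 0.86 and Stk4 from -2.73 to 1.52. The deviations of the same-numbered animals were hardly correlated (0.0343 over 8441 genes). Single wells weigh on these sums, so this value cannot exclude a pairing, and the main genotype test used none. With the replicate block, 0 genes were called in either direction (167 higher and 247 lower at an unadjusted p under 0.05 by edgeR), and Stk4 was at -0.42.

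Limits: each genotype has 2 animals and 1 NCM chip, KO wells are few and rich in mitochondrial UMIs, and 1 deep well can set an animal's sum.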

Other observations

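Stress genes were mixed in the neutrophil wells. Of 25 immediate early and stress genes tested, 9 lay below both WT animals and 5 above (beside 17.5% and 18.5% of all genes), with a median of -0.67 against -0.11 for all genes. Ddit3, which encodes the stress factor CHOP, was at 426, 60.9, 15.9 and 2.75 CPM, and Btg2, an antiproliferative early gene, at 1394, 898, 407 and 348 CPM. Neither passed the adjusted edgeR test.

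Of 20 glycolysis and hypoxia genes, 5 lay above both WT animals and 3 below, with a median of -0.49 that turned to 0.53 in thinned wells (6 of 16 above, 2 below) and was -0.04 without the deepest wells. Of 15 genes known from SiglecF-high tissue neutrophils, 5 lay below and 2 above, with a median of -0.82. Of 14 cell cycle genes, 5 lay above and 2 below (beside 18.5% and 17.5% of all genes), with a median of 0.74. In wells of at least 1% marker share it was -0.10, with 2 of 12 above and 1 below (beside 14.9% and 22.3% of all genes).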
